A study of Mus musculus with 10 samples.

Results

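Gene expression in the subcutaneous graft containing fibroblasts (PSI-F) was compared with that in the graft without them (PSI) on day 3 after transplantation. The comparison took 2 arrays of the 10 in the series, 1 per graft, and was read as the PSI-F level minus the PSI level over all genes. The PSI-F graft held rat islets and cultured mouse skin fibroblasts in a rat plasma scaffold, and the PSI graft held rat islets in the same scaffold with no added cells. The islets came from Wistar rats and the fibroblasts from full-thickness skin of nu/nu mice, ground without separating dermis and epidermis and used after a few passages. The recipients of both grafts were male Swiss nu/nu (nude) mice of 6 weeks, immunodeficient animals that lack a working Foxn1 gene, made diabetic with 1 injection of streptozotocin, a toxin of insulin-producing cells. The scaffold was laid on the abdominal musculature under a skin incision, so a retrieved graft could carry skin and muscle of the host. The other arrays were PSI-F and PSI grafts of days 1, 7 and 10 and subcutaneous tissue of 1 Diabetic and 1 Control (healthy) condition, both without a graft. For each graft and day 2 mice were killed and the RNA of best quality was hybridized, but the sources used here do not say if an array carried the RNA of 1 of them or of both.

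A graft placed under the skin makes a wound around itself. In such a wound neutrophils enter first and are followed by monocytes and macrophages, keratinocytes at the edge switch to stress keratins, and matrix is cut and laid down anew by fibroblasts. Interferons, released by infected or damaged tissue, switch on a shared set of antiviral genes, while hair follicles in the same skin pass through their own cycle of growth and rest.

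Values are the deposited log2 levels of Affymetrix mouse probe sets, on which a difference of 1 stands for 2-fold and of 2 for 4-fold. Levels below about 3 lie close to the array medians, which were between 2.82 and 2.94, and are little above background. After removal of control probe sets, 18193 genes were measured, each read from the probe set of highest mean level over the arrays. Keratin and keratin-associated protein genes of the hair shaft, 58 in number, were recognized by symbol and set apart, which left 18135 genes. A gene of this kind under another symbol would have stayed among the 18135. With 1 array per graft, the day 3 difference has no replicate error and no p-value. The differences of the other days served as a yardstick. Ins2, an insulin gene, was at 8.67 in the PSI-F graft and 8.95 in the PSI graft of day 3, against 3.13 in Diabetic and 2.27 in Control tissue, so islet RNA was present in both. Genes that mark fibroblasts were also high in the PSI graft, which received no fibroblasts, with Col1a1 (a chain of type I collagen) at 11.47 in PSI-F and 11.36 in PSI. Col1a2 differed by -0.09, Dcn by 0.11, Col3a1 by 0.12, Pdgfra by 0.43 and Lum by 0.50. As a sign of RNA quality, the level of the 3′ minus that of the 5′ control probe set for actin was 0.72 in PSI-F and 0.45 in PSI of day 3, within the 0.33 to 0.76 of all arrays, and that for Gapdh was -0.01 in PSI-F and 0.02 in PSI. The 64 control probe sets had a median size of difference of 0.12 on day 3 and of 0.10 to 0.28 on the other days. The arrays report mixed tissue, in which fewer cells of a type and less RNA per cell cannot be told apart.

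Outside the hair keratins, 29 genes were higher by 4-fold or more in the PSI-F graft than in the PSI graft of day 3 (0.16% of 18135) and 63 were lower by as much (0.347%). The numbers were 8 higher and 15 lower on day 1, 22 and 14 on day 7, and 4 and 9 on day 10. At 2-fold, 180 genes were higher (0.993%) and 294 lower (1.62%) on day 3, against 185 genes apart in both directions together on day 1, 288 on day 7 and 117 on day 10. By direction, 48 of the 18135 were higher and 137 lower on day 1. The numbers were 138 and 150 on day 7, and 54 and 63 on day 10. The list counts at 2-fold on day 3 below are to be read against 0.993% of all genes higher and 1.62% lower. List counts on another day are to be read against the numbers of that day. The bulk of the genes was not further apart than on other days, as the median size of the difference was 0.18 on day 3, 0.19 on day 1, 0.22 on day 7 and 0.12 on day 10. It was the extremes that were wider, with 1 gene in 100 beyond 1.55 on day 3, against 1.01, 1.15 and 0.85 on days 1, 7 and 10.

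**Figure D1:**
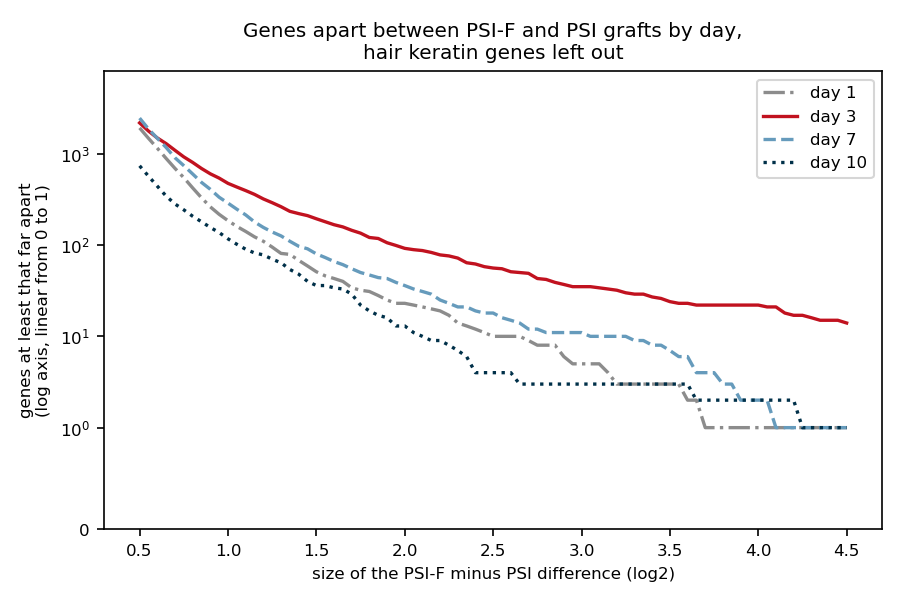
Number of genes outside the hair keratins (vertical, log axis) at least as far apart between the PSI-F and PSI graft of a day as the log2 difference on the horizontal axis. From a difference of 1 onwards the day 3 curve runs above those of days 1, 7 and 10, with 92 genes at a difference of 2, against 23, 36 and 13.

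The 29 genes higher in PSI-F fell into a few recognizable kinds, with 21 of them on one or more of 52 gene lists: neutrophil genes and their attractants, cytokines, stress keratins, matrix proteases and the Reg family. Of the 63 lower genes 22 were on a list, and 13 of these were regulators or structural genes of the hair follicle. The lists together held 1040 of the 18193 genes measured. They were written with earlier results of these data known, and include a list of genes the study names. In 24 of the 29 higher genes the PSI-F graft of day 3 was the highest of the 8 grafts, which was so for 14.2% of all genes, and in 9 the PSI graft of day 3 was the lowest of the 8. In 47 of the 63 lower genes the PSI-F graft was the lowest of the 8 (12.6% of all genes), and in 3 the PSI graft was the highest. The shares of all genes with the PSI graft of day 3 lowest or highest were not counted, so the 9 and the 3 have no yardstick. The day 3 difference was larger than on each other day in 27 of the 29 and 61 of the 63 (27% of all genes). These shares are descriptions, since the genes were taken for their day 3 difference.

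**Figure D2:**
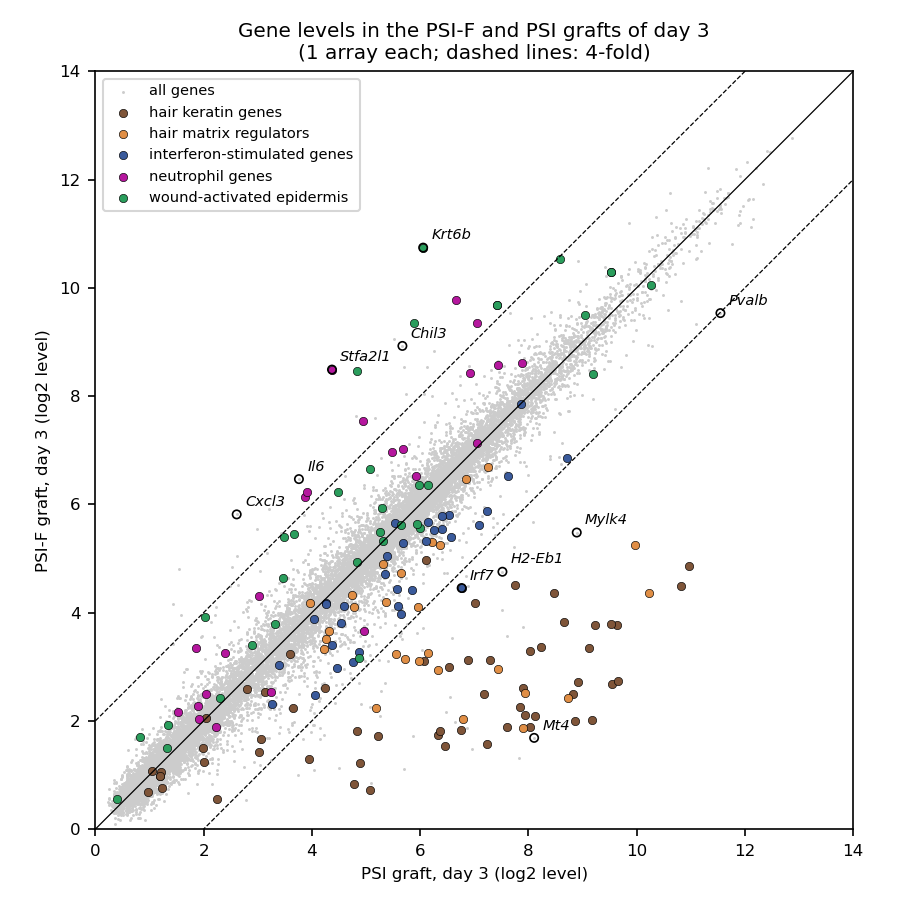
Level of each gene in the PSI graft (horizontal) and the PSI-F graft (vertical) of day 3, in log2 units, with 5 groups of genes in colour, named examples ringed and dashed lines at 4-fold. Most neutrophil genes and genes of wounded epidermis lie above the diagonal, with Krt6b at 10.74 in PSI-F and 6.06 in PSI, and most hair and interferon-stimulated genes lie below it, with Irf7 at 4.45 in PSI-F and 6.77 in PSI.

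To see which of these differences stood apart from the other days, the day 3 difference of each gene was tested against the mean of those of days 1, 7 and 10 with limma, with the spread over those 3 days as the error and Benjamini-Hochberg adjustment over all 18193 genes. It called 40 genes (0.22%), of which 32 lay outside the hair keratins, 14 with a more positive and 18 with a more negative difference on day 3. At an unadjusted p under 0.05 the number was 1812 (9.96%). The test takes the days as replicates and does not ask whether PSI-F and PSI differ. No gene was called after cyclic loess normalization of the same values (smallest adjusted p of 0.0642), and without day 1 the number was 293, so adjusted p-values below are for the values as deposited.

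Neutrophil genes made up the clearest group on the higher side. Of 25 measured, 13 were higher in PSI-F by 2-fold or more and 1 was lower (0.993% and 1.62% of all genes), with a median difference of 1.13, against -0.0006 over all genes and 0.00, 0.25 and -0.13 for the same list on days 1, 7 and 10. The groups overlap, as S100a9 was also on the list of wound-activated epidermis and Mmp9 on that of matrix proteases. Stfa2l1, a stefin that inhibits cysteine proteases, was at 8.49 in the PSI-F graft and 4.37 in the PSI graft of day 3, and between 4.64 and 6.57 in the 6 other grafts. Its relative Stfa3 was at 9.77 in PSI-F and 6.66 in PSI, against 8.20 to 8.94 in the other grafts, but also at 9.55 in Control tissue, which had no graft. For both, the PSI-F graft was thus above and the PSI graft of day 3 below every other graft, and the day 3 difference departed from that of the other days by 4.40 ± 0.36 and 3.62 ± 0.27 (estimate ± SE, limma, adjusted p = 0.025 each).

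Other neutrophil genes took a different course. S100a9, a subunit of calprotectin, was at 9.69 in PSI-F, against 7.42 in PSI, while the day 1 grafts were at 9.75 in PSI-F and 10.31 in PSI and the grafts of days 7 and 10 at 5.04 to 6.70. Slpi, an inhibitor of neutrophil elastase, was at 9.35 and 7.05, against 9.50 and 9.22 on day 1. Clec4e, the Mincle receptor for microbial and damage-borne glycolipids, was at 7.53 and 4.95, against 7.60 and 7.34 on day 1. In these genes the PSI-F graft of day 3 stood near the level of the day 1 grafts. The PSI graft of day 3 was within the range of days 7 and 10 for Slpi (6.60 to 7.89). It was just above that range for Clec4e (2.96 to 4.83) and further above it for S100a9. Trem1, a receptor that amplifies myeloid activation, was at 6.23 in PSI-F and 3.92 in PSI (other grafts 3.21 to 5.11), and Csf3r, the receptor of granulocyte colony-stimulating factor, at 7.02 and 5.68 (other grafts 4.73 to 6.61). S100a8, the partner of S100a9, differed by 0.77 (10.30 in PSI-F, 9.52 in PSI). Genes for granule proteins made in the bone marrow were near background in both grafts of day 3, with Mpo at 2.54 in PSI-F and 3.24 in PSI, Elane at 2.03 and 1.90 and Ltf at 2.27 and 1.90. Cxcr2, the receptor for the attractants described next, was at 2.17 and 1.52, too dim to compare.

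The attractants of neutrophils moved with them. On day 3 Cxcl2 was at 8.53 in PSI-F and 5.71 in PSI. It was at 7.20 and 8.20 on day 1, at 3.30 to 5.81 on days 7 and 10, and at 1.72 in Diabetic and 0.97 in Control tissue. Cxcl3 was at 5.81 in PSI-F and 2.61 in PSI, at 4.71 and 5.74 on day 1, and under 2 afterwards. Cxcl5 was at 8.54 and 6.14, with day 1 grafts at 6.52 in PSI-F and 6.08 in PSI. All are ligands of Cxcr2, and for all the PSI-F graft of day 3 was the highest of the 8 grafts. On day 1 the order was the other way for Cxcl2 and Cxcl3, with differences of -0.99 and -1.03. Cxcl1, a further ligand of the family, differed by only 0.48 (5.77 in PSI-F, 5.29 in PSI). Over the list of 10 attractants, 4 were at least 2-fold higher and none lower, with a median of 0.60. Cxcl3 was called against the other days by limma (3.63 ± 0.40, adjusted p = 0.039).

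The promoters of Cxcl2, Cxcl3, Cxcl1 and Il6 are shown because they share a known site for NF-kB, the factor that inflammatory signals activate. No promoter of Cxcl5 was available. Each stretch of 100 bases lies before the start of the gene (RefSeq, GRCm38.p6) and is written 5′ to 3′ along the gene, with matches to GGGNNNTTCC on either strand in capitals, overlapping matches run together. The letters were found within 250 bases before to 50 after the start in 6.31% of 27025 genes, in 3 of 8 attractants with a promoter in the table and in 5 of 12 genes of the NF-kB list. A match is a description of sequence only.
Cxcl2, chr5:90903776-90903875, + strand: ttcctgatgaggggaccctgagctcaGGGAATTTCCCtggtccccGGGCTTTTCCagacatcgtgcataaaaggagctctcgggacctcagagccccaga
Cxcl3, chr5:90786001-90786100, + strand: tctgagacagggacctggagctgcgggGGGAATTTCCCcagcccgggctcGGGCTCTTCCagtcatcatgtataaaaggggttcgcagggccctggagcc
Cxcl1, chr5:90891130-90891229, + strand: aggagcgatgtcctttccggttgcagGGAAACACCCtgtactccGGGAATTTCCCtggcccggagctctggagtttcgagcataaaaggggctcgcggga
Il6, chr5:30013014-30013113, + strand: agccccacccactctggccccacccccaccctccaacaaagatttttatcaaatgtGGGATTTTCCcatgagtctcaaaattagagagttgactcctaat
Cxcl1 carried the same palindrome GGGAATTTCCC as Cxcl2 and Cxcl3, although its level differed by 0.48 on day 3 where theirs differed by 2.83 and 3.20.

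Among cytokines, Il6 was at 6.47 in the PSI-F graft and 3.76 in the PSI graft of day 3, and between 1.14 and 4.06 in the 6 other grafts, so that the PSI-F graft of day 3 stood well above all. Il1b was at 8.04 in PSI-F and 5.74 in PSI, against 5.10 to 7.78 in the others. All 15 measured genes of the IL-1 family were above 0, of which 3 by at least 2-fold: Il1b, Il1f9 at 1.58, a cytokine of keratinocytes, and Il1rn at 1.04, the receptor antagonist. Of the 13 genes of the IL-6 family and its response, 12 were above 0 and 3 at least 2-fold higher, among them Socs3 (9.04 in PSI-F, 7.80 in PSI), a feedback inhibitor that IL-6 induces. All 14 NF-kB feedback genes were above 0, with a median of 0.62, and 2 passed 2-fold, Ier3 at 1.19 and Tnfaip2 at 1.16. Ptgs2, the inducible cyclooxygenase of prostaglandin synthesis, was at 5.48 in PSI-F and 3.43 in PSI (other grafts 2.51 to 4.84). Its difference of 2.05 on day 3 was smaller in size than the opposite difference of -2.33 on day 10. On day 1 it was -1.41. Cd14, the co-receptor for bacterial lipopolysaccharide, was at 8.03 and 6.08 (other grafts 5.03 to 7.61) and was called by limma (2.13 ± 0.25, adjusted p = 0.045). Among 18 pattern-recognition genes, Clec4n and Tlr2 also passed 2-fold, at 1.66 and 1.33.

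Macrophage genes were slightly higher as a body. Of 22, 3 were at least 2-fold higher (Lyz2 by 1.13, Itgam by 1.04 and Marco by 1.25, the last of them dim), and the median was 0.42, against 0.06, 0.35 and -0.24 on days 1, 7 and 10. The PSI-F graft of day 3 was nonetheless the highest of the 8 grafts in 15 of the 22 (14.2% of all genes). Chil3, the chitinase-like lectin Ym1 of myeloid cells, was at 8.93 in PSI-F and 5.67 in PSI of day 3, at 8.86 and 8.60 on day 1 and between 1.46 and 3.41 on days 7 and 10, again with the PSI-F graft at the day 1 level (2.79 ± 0.25, limma, adjusted p = 0.025). Chil1, of the same family, was at 8.37 and 6.73. Arg1, arginase of repair-phase macrophages, was at 10.49 in PSI-F and 8.92 in PSI, above the 5.32 to 8.76 of the other grafts in both. Of 19 genes of the chitinase-like and alternative activation list 6 were at least 2-fold higher, but the median was 0.09. Ccl3 and Ccl2, attractants of monocytes, were higher by 1.64 and 1.20, and Ccl5, an attractant of lymphocytes, was lower (difference of -1.52).

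Mast cell genes were higher in the PSI-F graft as well. Hdc, which makes histamine, was at 5.59 in PSI-F and 4.12 in PSI, Mcpt4, a chymase of connective tissue mast cells, at 6.12 and 4.77, Cpa3, their carboxypeptidase, at 6.87 and 5.91, and Fcer1a, a chain of the IgE receptor, at 3.96 and 2.20. In each the PSI-F graft of day 3 was the highest of the 8 grafts. Over 14 genes 4 were higher by 2-fold or more and 1 was lower, with a median of 0.60. On day 10 the list was at 0.41 and on days 1 and 7 at -0.20 and -0.32.

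**Figure D3:**
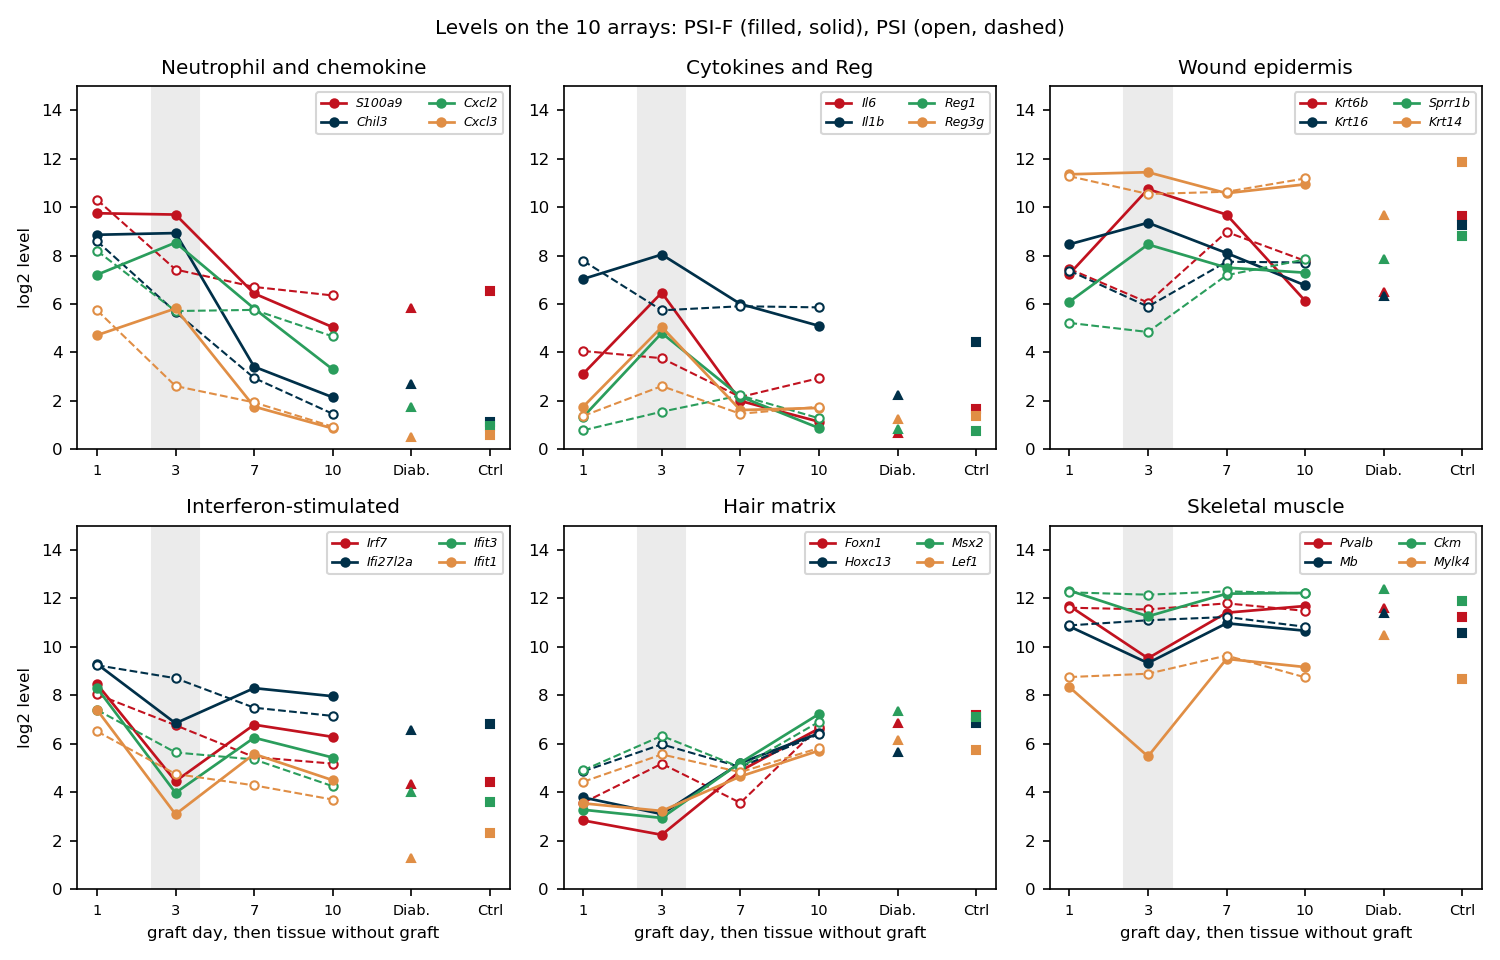
Log2 levels of 24 genes on the 10 arrays, with PSI-F as filled points and solid lines, PSI as open points and dashed lines, and tissue without a graft (Diabetic, Control) at the right of each panel, 1 array per point, day 3 shaded. In the PSI-F graft of day 3 Il6, Reg1 and Reg3g peaked, Irf7 and Ifit3 dipped below the neighbouring days, and Pvalb, Mb and Mylk4 were lower than on any other array.

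Interferon-stimulated genes ran against the rest of the inflammatory genes. Of 33 measured, 32 were below 0 and 14 of these were lower by 2-fold or more in the PSI-F graft of day 3 (1.62% of all genes), and none was 2-fold higher, with a median of -0.86. On the other days the list leaned the other way, with medians of 0.51, 0.81 and 0.47 on days 1, 7 and 10, and with 13 members at least 2-fold higher in PSI-F on day 7. The median level of the list was 4.45 in PSI-F and 5.59 in PSI grafts of day 3, 7.28 and 6.52 on day 1, 5.85 and 5.05 on day 7, and 5.14 and 4.67 on day 10, against 3.50 in Diabetic and 3.60 in Control tissue. The PSI graft was thus lower at each later day, while the PSI-F graft of day 3 lay below both the day 1 and the day 7 graft of its own kind.

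Irf7, the regulator that amplifies the interferon response, was at 4.45 in PSI-F, against 6.77 in PSI, and between 5.18 and 8.47 in the other grafts. Ifit3, which belongs to a family that blocks translation of viral RNA, was at 3.97 and 5.64 (others 4.25 to 8.31), and Ifi27l2a at 6.85 and 8.71 (others 7.15 to 9.30). Each was lower in the PSI-F graft of day 3 than in any other graft, and Irf7 and Ifi27l2a had come to the level of tissue without a graft (4.33 and 6.57 in Diabetic, 4.41 and 6.80 in Control). Ifit1, at 3.09 and 4.75, and Usp18, a protease that removes the ubiquitin-like Isg15, at 3.27 and 4.87, followed the same course. By limma, 6 of the 33 were called against the other days: Irf7 (-3.27 ± 0.37, adjusted p = 0.041), Ifit3 (-2.66 ± 0.24, adjusted p = 0.025), Usp18, Ifit1, Mx1 and Rtp4. Not all members took part, as Stat2, Irf9 and Ifi35, at -0.16, 0.12 and 0.00, were level between the grafts. Irf9 and Stat2 are components of the factor ISGF3, through which type I interferon acts.

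ISGF3 and its relatives bind an element with the core GAAANNGAAA. It was found on either strand in the promoters of 3.99% of 27025 genes and in those of 12 of the 22 interferon-stimulated genes with a promoter in the table. A stretch of 100 bases is shown for 3 of the genes lower in PSI-F, with each match in capitals. In Ifit3 and Ifit1 the match is on the opposite strand, where it reads TTTC, 2 free bases, TTTC.
Ifit3, chr19:34583362-34583461, + strand: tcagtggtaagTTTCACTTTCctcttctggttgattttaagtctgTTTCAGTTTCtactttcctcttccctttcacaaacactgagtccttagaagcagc
Ifit1, chr19:34640759-34640858, + strand: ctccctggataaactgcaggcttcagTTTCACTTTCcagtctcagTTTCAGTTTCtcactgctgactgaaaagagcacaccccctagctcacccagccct
Oas3, chr5:120777680-120777779, - strand: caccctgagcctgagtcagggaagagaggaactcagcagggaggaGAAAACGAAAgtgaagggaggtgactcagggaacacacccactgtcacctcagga
Stat2, which was level between the grafts, also held the core in its promoter, so the letters alone did not separate lower from level members.

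Genes that interferon gamma induces showed a similar but weaker lean. Of 27, 22 were below 0 and 5 at least 2-fold lower, with a median of -0.35 on day 3 and of 0.68, 1.00 and -0.41 on days 1, 7 and 10, and the PSI-F graft of day 3 was the lowest of the 8 in 13 of them (12.6% of all genes). Cxcl9, an attractant of activated lymphocytes, was at 4.48 in PSI-F and 6.73 in PSI (its other, dimmer probe set differed by -0.52), and the immunity-related GTPases Iigp1 and Igtp differed by -1.93 and -1.28. Class I genes did not share this, with H2-K1 at 0.42, H2-D1 at 0.33 and B2m at -0.07. Genes of NK and T cells were low in both grafts of day 3, where only 1 of 22 reached a level of 5. Of the 22, 20 were below 0 and 4 at least 2-fold lower, among them Gzma, a granzyme, at 2.79 in PSI-F and 4.72 in PSI (other grafts 3.73 to 5.54). Cd3e, which marks T cells, was at 3.18 and 3.04, in animals that have few of them.

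H2-Eb1, a beta chain of MHC class II, gave the largest difference among 11 class II genes, at 4.75 in PSI-F and 7.52 in PSI. It was also lower in PSI-F on day 7 (5.57 against 7.80) and day 10 (6.20 against 8.22) but not on day 1 (7.30 against 6.78). Other genes of the class II list differed less on day 3, with H2-Aa at -0.89, Cd74 at -0.76 and H2-Ab1 at -0.48. These were at 0.05, -0.14 and 0.31 on day 7. H2-T24, a class Ib gene, was at 1.10 in PSI-F and 4.04 in PSI (other grafts 2.37 to 5.74), a departure from the other days of -3.15 ± 0.28 (limma, adjusted p = 0.025).

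Genes that keratinocytes switch on in wounds gave the largest difference on the higher side. Krt6b, a keratin of activated epidermis, was at 10.74 in PSI-F and 6.06 in PSI, with the other grafts between 6.13 and 9.69, so the PSI-F graft of day 3 was the highest and the PSI graft of day 3 the lowest of the 8. The same held for its partner Krt16, at 9.35 in PSI-F and 5.89 in PSI (others 6.77 to 8.46), and for Sprr1b, a precursor of the cornified envelope, at 8.46 and 4.84 (others 5.22 to 7.84). Among 33 genes of wound-activated epidermis 11 were higher by 2-fold or more and 2 lower (0.993% and 1.62% of all genes), with a median of 0.46. The 2 lower members were Krt75, which also belongs to the hair follicle, and Lce3a. The median was 0.00, 0.31 and -0.17 on days 1, 7 and 10, with 4 members at least 2-fold higher on day 7 and 4 lower on day 10. In 8 of the 33 the PSI graft of day 3 was the lowest of the 8 grafts, for which the share of all genes was not counted. Control tissue itself was at 9.64 for Krt6b and 9.25 for Krt16. Keratins of resting epidermis differed less, with Krt14 at 11.44 in PSI-F and 10.54 in PSI, Krt5 at 10.71 and 10.28, and Lor, the loricrin of the outer layer, at 10.94 and 10.87. Serpinb12, a protease inhibitor of epithelia, was at 5.92 and 3.22 (3.35 ± 0.32 against the other days, limma, adjusted p = 0.029), but its other probe set differed by only 0.76.

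Genes of the growing hair follicle were the main body of the lower side. The 58 hair keratin genes, set apart from the counts, had a median level of 2.17 in PSI-F and 6.64 in PSI grafts of day 3, and 40 of them were at least 4-fold lower. Among 27 other genes of the hair matrix and inner root sheath, 16 were at least 2-fold lower and none higher (1.62% of all genes lower), with a median of -1.85. Tchh, trichohyalin of the inner root sheath, was at 5.24 in PSI-F and 9.98 in PSI, and Padi3, the enzyme that modifies trichohyalin, at 2.51 and 7.94. The transcription factors that direct the hair matrix were lower with them: Foxn1 at 2.24 in PSI-F and 5.18 in PSI, Hoxc13 at 3.10 and 5.98, Msx2 at 2.94 and 6.33, Dlx3 at 3.26 and 6.15, and Lef1, which carries the Wnt signal, at 3.23 and 5.56. Foxn1 transcript is thus measured here although the nude mutation removes its function.

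The hair genes did not keep to one direction over the days. Of the 27, 12 had also been lower in PSI-F by 2-fold or more on day 1, and 6 were 2-fold higher on day 7. The hair keratin median was 3.28 in PSI-F, against 2.40 in PSI, on day 1, 5.39 and 2.58 on day 7, and 8.20 and 7.49 on day 10, against 7.44 in Diabetic and 8.51 in Control tissue. Gm11559 and Gm11567, not set apart by symbol, had levels that ran with these medians. On day 3 Gm11559 was at 1.31 in PSI-F and 7.83 in PSI, the largest lower difference of the genes named here. Gm11567 was at 1.59 and 7.25. Both were counted among the 63 lower genes. Of the 63 genes 4-fold lower on day 3, 23 had been 2-fold lower or more on day 1 (137 of all 18135 genes). On day 7, 25 of the 63 were higher to that extent (138 of 18135). Mt4, a metallothionein of stratified epithelia, was at 1.69 in PSI-F, against 8.11 in PSI, while the other grafts lay between 4.79 and 8.65, and departed from the other days by -6.14 ± 0.61 (limma, adjusted p = 0.030). Cells that live in or near the follicle followed. Of 13 melanocyte genes 6 were at least 2-fold lower (median -0.85), among them Mlana, at 2.55 in PSI-F and 5.27 in PSI, and Tyr, the tyrosinase of pigment synthesis, with a difference of -1.89. Of 47 genes of the Wnt system 5 were at least 2-fold lower and none higher. Besides Lef1 they included Wnt5a at -1.24 and Nkd2, a Wnt inhibitor, at -1.07. This was not particular to day 3, since 4 members of the list passed 2-fold downwards already on day 1, and 3 on day 7. The day 1 differences of Wnt5a and Nkd2, at -1.48 and -1.47, were larger in size than those of day 3, and that of Lef1, at -0.89, was smaller. On day 3, 2 of 14 sebaceous genes were at least 2-fold lower, Cyp2e1 at -2.53 and Scd3 at -1.16.

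**Figure D4:**
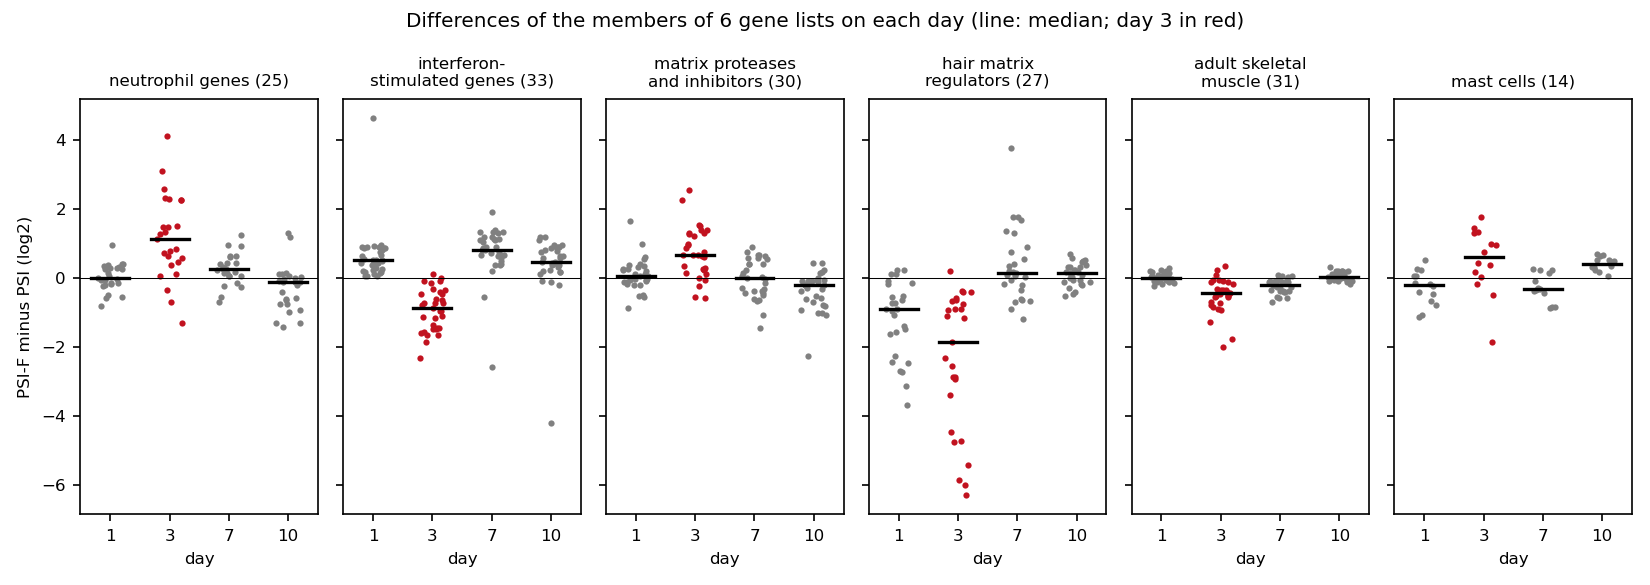
Log2 difference (PSI-F minus PSI) of each member of 6 gene lists on days 1, 3, 7 and 10, with day 3 in red and the median as a black line. All but 1 of 33 interferon-stimulated genes are below 0 on day 3, and most are above it on the other days, neutrophil genes are centred near 0 on all but day 3, and hair genes are low on days 1 and 3 (the outlying interferon-stimulated point of days 1, 7 and 10 is Xaf1, at 4.65, -2.58 and -4.22).

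Skeletal muscle genes also separated the pair. Of 31 genes of adult muscle 28 were below 0, 3 of them at least 2-fold lower, with a median of -0.45, against 0.00, -0.19 and 0.02 on days 1, 7 and 10. In 24 of the 31 the PSI-F graft of day 3 was the lowest of the 8 grafts (12.6% of all genes). Pvalb, a calcium buffer of fast fibres, was at 9.53 in PSI-F and 11.55 in PSI, Mb, myoglobin, at 9.33 and 11.10, and Pygm, muscle glycogen phosphorylase, at 8.94 and 10.21. Ckm, muscle creatine kinase, was at 11.26 and 12.16, and Acta1, skeletal actin, at 12.77 and 12.87. Mylk4, a kinase of the myosin light chain kinase family, was at 5.48 in PSI-F and 8.89 in PSI, with every other graft between 8.34 and 9.64 (-3.37 ± 0.35 against the other days, limma, adjusted p = 0.030). Genes of the mitochondrial respiratory chain, which muscle holds in plenty, differed little in size, but 26 of 27 were below 0. Their median was -0.28 on day 3 and -0.27 on day 7, against -0.06 and 0.06 on days 1 and 10. The PSI-F graft of day 3 was the lowest of the 8 in 22 of them (12.6% of all genes). Cox7a1, the muscle form of a cytochrome c oxidase subunit, was at 5.80 in PSI-F and 7.79 in PSI.

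Genes of injured and regenerating muscle ran opposite to those of adult muscle. Of 19, 6 were at least 2-fold higher and 1 lower, with a median of 0.68, or 0.44 where the probe sets of a gene were averaged. On day 7 the list leaned the other way, with 6 members at least 2-fold lower in PSI-F and a median of -0.38. Ankrd1, a titin-binding protein that responds to stretch and injury, was at 9.06 in PSI-F and 5.52 in PSI, a difference of 3.54, against 1.02, -2.36 and -0.04 on days 1, 7 and 10. Myog, the factor of myoblast differentiation, was at 5.37 and 4.29, Chrna1, a subunit of the muscle acetylcholine receptor, at 8.22 and 7.03, and Tnnt2, the troponin T of immature fibres, at 6.30 and 4.96. Ankrd2, a relative of Ankrd1, was at 8.83 and 6.25, between the 10.06 in PSI-F and 10.02 in PSI of day 1 and the 5.61 to 7.30 of days 7 and 10. Nmrk2, a kinase that makes NAD in muscle, differed by 1.79 (2.41 ± 0.22 against the other days, limma, adjusted p = 0.025). Fat genes were lower, with all 25 below 0 and 4 at least 2-fold so, among them Thrsp, a regulator of lipid synthesis, at 6.84 in PSI-F and 8.40 in PSI and Cidec, a lipid droplet protein, at 4.16 and 5.37. The median of the fat list was -0.56 on day 3, and 0.25, -0.33 and 0.36 on days 1, 7 and 10.

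Hair, melanocyte, fat and adult muscle genes, all of kinds of tissue found near the scaffold in the host, were thus lower in the PSI-F graft of day 3 together. Epidermal genes, also of skin, were not. Krt14 was higher by 0.90, Krt1 by 0.95, Krt5 by 0.43 and Lor by 0.07. Of 33 genes of epidermal differentiation 23 were above 0 and 10 below. The sources used here do not say how much of each tissue was taken with the graft, and its part in the other differences was not tested.

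Genes of matrix turnover were higher in PSI-F. Of 30 matrix proteases and inhibitors 10 were at least 2-fold higher and none lower (0.993% of all genes higher), with a median of 0.67, against 0.04, 0.01 and -0.21 on days 1, 7 and 10, and the PSI-F graft of day 3 was the highest of the 8 grafts in 14. Mmp13, a collagenase, was at 5.54 in PSI-F and 2.98 in PSI (others 2.79 to 5.51), and Mmp9, the gelatinase of neutrophils and keratinocytes, at 6.13 and 3.87 (others 4.29 to 5.58). Mmp13 was also higher in PSI-F on day 1, with a difference of 1.67, but lower on day 10, at -2.26. Adamts4, an aggrecanase, was at 6.10 and 4.60, and Timp1, the inhibitor of many of these proteases, at 9.44 and 8.05. Of 20 matricellular proteins 3 were at least 2-fold higher, Thbs1 (1.33), Ccn1 (1.16) and Tnc (1.13), which are made in wounds, and Comp, cartilage oligomeric matrix protein, was lower (-1.65). The matrix itself differed little, as none of 28 collagen genes reached 2-fold (from -0.50 to 0.78). Of 21 genes that mark fibroblasts only S100a4 did, at 10.07 in PSI-F and 9.07 in PSI, with a list median of 0.27. Cdh11, the cadherin of mesenchymal cells, was at 7.52 and 6.07, although it was lower in PSI-F on days 1, 7 and 10, by -0.47, -0.66 and -0.88 (2.12 ± 0.25 against those days, limma, adjusted p = 0.044).

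Genes of vessels and of survival, which bear on the study's interest in engraftment, showed small differences. None of 33 endothelial and none of 22 VEGF and angiopoietin genes reached 2-fold, with medians of 0.28 and 0.23. Most leaned towards PSI-F, with 26 endothelial genes above 0 and 7 below, and 14 VEGF and angiopoietin genes above and 8 below. The endothelial markers Cdh5, Emcn and Cldn5 differed by 0.45, 0.42 and 0.28. Pecam1, which marks endothelium, was at 5.90 in PSI-F and 5.72 in PSI, Vegfa at 6.31 and 5.85, Vegfc at 3.99 and 3.41, Angpt4 at 3.10 and 3.15, Pdgfa at 5.97 and 5.52 and Pdgfb at 5.98 and 5.70. Fgf4, at 2.46 and 2.74, and Fgf12, at 1.28 and 0.98, were at background. Selp, the selectin with which activated endothelium catches leukocytes, differed more, at 6.55 in PSI-F and 5.21 in PSI (others 4.62 to 5.53). Among 30 genes of hypoxia and glycolysis 3 reached 2-fold: Hif1a, the oxygen-sensitive factor, at 9.77 in PSI-F and 8.74 in PSI, Slc2a1, a glucose transporter, at 8.34 and 7.30, and Car12, a carbonic anhydrase, at 7.24 and 5.98, while the list median was 0.16. None of 26 genes of the Bcl2 family and apoptosis reached 2-fold, and Bcl2 itself was at 4.70 and 4.85. None of 42 cell cycle genes did so either, with a median of 0.16 on day 3, whereas on day 1 the same list was at -0.88 with 16 members at least 2-fold lower in PSI-F.

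Of the islet and endocrine genes none of 25 reached 2-fold, with Sst, somatostatin, at 3.83 in PSI-F and 4.51 in PSI as the furthest below 0 among hormones. Mouse probes read rat islet RNA only where the sequences match, and Gcg, glucagon, was at 1.33 and 1.54, at background in all grafts. Reg1 and Reg3g, secreted lectins of regenerating pancreas and inflamed epithelium, stood out. Reg1 was at 4.80 in the PSI-F graft and 1.55 in the PSI graft of day 3, and between 0.78 and 2.22 in the 6 other grafts (3.21 ± 0.37 against the other days, limma, adjusted p = 0.041). Reg3g was at 5.05 and 2.61, and between 1.37 and 1.76 in the others (2.28 ± 0.25, limma, adjusted p = 0.041). The other 5 members of the family were within 2-fold.

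**Figure D5:**
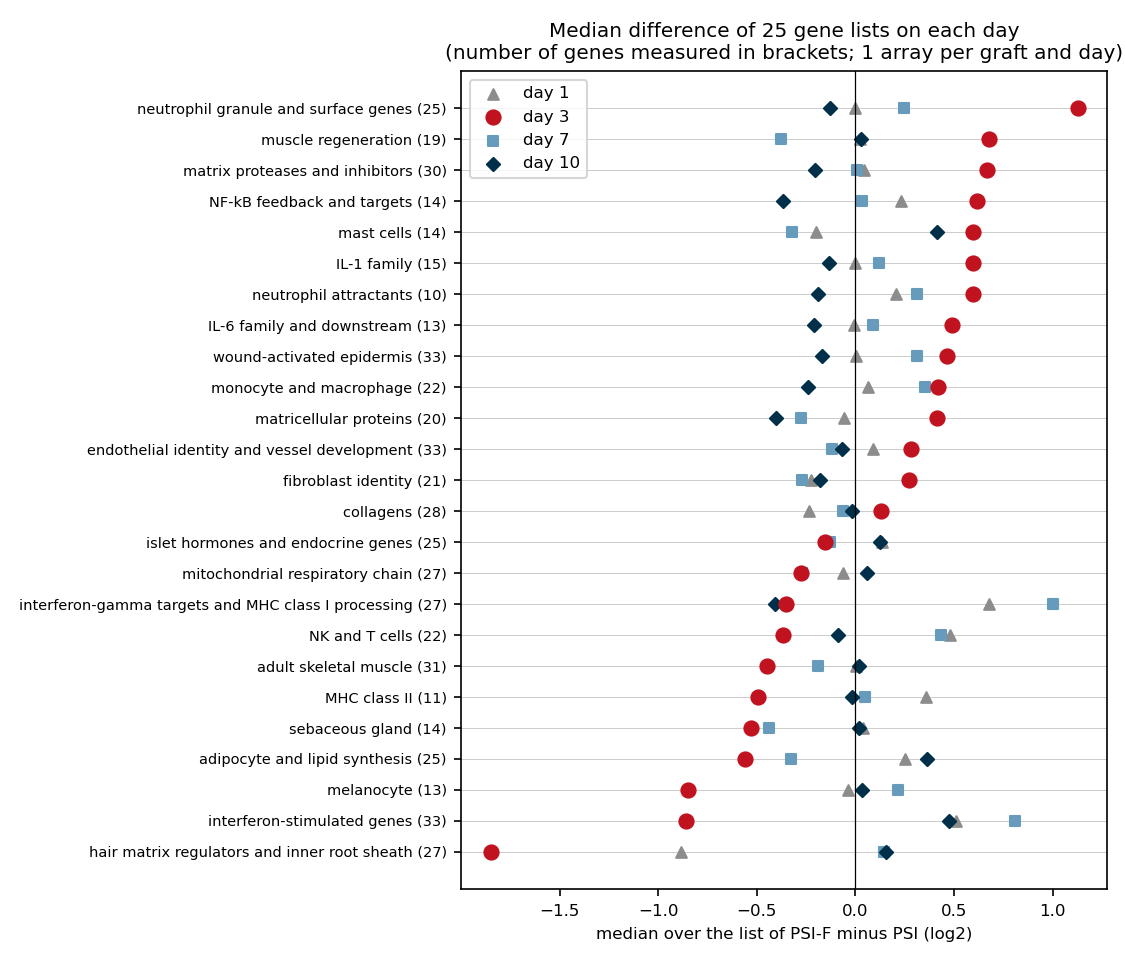
Median log2 difference (PSI-F minus PSI) of 25 gene lists on days 1, 3, 7 and 10, ordered by day 3, with the number of genes measured in brackets. On day 3 the medians run from -1.85 for hair matrix regulators and -0.86 for interferon-stimulated genes to 1.13 for neutrophil genes, while the same lists are at -0.89, 0.51 and 0.00 on day 1.

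Some single genes rested on 1 probe set that others of the same gene did not follow. Among the 29 higher genes 8 had more than 1 probe set, and in 6 of these another was also at least 2-fold higher. Among the 63 lower genes 17 had more than 1, and in 5 another was also at least 2-fold lower. Taf15, an RNA-binding protein, was at 4.15 in PSI-F and 1.44 in PSI of day 3 but at 1.27 and 4.20 on day 1, and its other probe set differed by -0.08. For Lef1, Msx2 and Dlx3, above, the other probe sets, at -0.44, -0.23 and -0.82, did not reach a level of 5 on either array.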

How the data were processed

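The deposited values are log2 levels of probe sets on 10 Affymetrix mouse arrays, which the authors made with RMA (background correction, quantile normalization and a summary per probe set); R 2.15.0 and affy 1.36.0 are named in the submitters' notes on processing. Quantile normalization gives all arrays nearly the same distribution, so a shift of most genes would not be seen. Read depth does not apply, and precision is limited by 1 array per graft and day. Of 45101 probe sets, 64 controls were left out, 34945 carried 1 gene symbol, 932 several and 9160 none; symbols were updated through gene IDs (RefSeq, GRCm38.p6), which matched 34741. Where a gene had several probe sets, that of highest mean level was taken.

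The day 3 difference was the PSI-F level minus the PSI level. Of 1130 genes on 52 lists, 1040 were measured. The day 3 difference was tested against those of days 1, 7 and 10 with limma 3.58.1 in R 4.3.3 (lmFit and eBayes, 4 within-day differences, 2 residual degrees of freedom before moderation, Benjamini-Hochberg adjustment, threshold 0.05). Tested on simulated data of 18193 genes with 50 changed per size, this recovered 0 at a log2 change of 1, 31 at 2, 39 at 3 and 41 at 4, with 5 false calls. Tables and figures used pandas 2.3.3 and numpy 2.4.6 under Python 3.11.15, with matplotlib 3.10.9 for plots. Promoter sequences were from RefSeq.

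The members, lists and tests were chosen with earlier results of these data known. Genes were named if they had a level of at least 5 on 1 or both arrays of day 3 and were among the 30 largest differences in a direction or the 6 largest of a list, if the study names them, or if they mark a cell type. Others were picked after their values were seen: Mpo, Elane, Ltf, Marco, Ifit1, Usp18, Mx1, Oas3, Stat2, Irf9, Ifi35, H2-K1, H2-D1, B2m, H2-T24, Lce3a, Krt75, Nmrk2, Cdh11, Taf15 and Xaf1. Alternatives were the mean of all probe sets, a filter on dim genes (level of at least 5), cyclic loess normalization (3 iterations), probe sets in place of genes, hair keratins included, an intensity trend in limma, and leaving out day 1, 7 or 10. Histology and the study's other experiments were not used here.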

Additional observations from a re-analysis of the deposited data

Results flagged for a closer look

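The genes and lists below were marked because their day 3 difference departed from that of another day. The interferon-stimulated list had a median difference of -0.86 on day 3, and of 0.51 on day 1 and 0.81 on day 7, in the opposite direction. This departure of the list was not tested as such. By limma, the departure of day 3 from the mean of the other days was called at an adjusted p under 0.05 for 18 genes that were at least 4-fold apart on day 3 outside the hair keratins. It was negative for Mt4 (-6.14), Gm10228 (-6.07), Gm11563 (-6.03), Mylk4 (-3.37), Irf7 (-3.27), H2-T24 (-3.15), Otop2 (-3.03), Pinlyp (-2.60) and Cldn8 (-2.23). It was positive for Olr1 (2.23), Reg3g (2.28), Chil3 (2.79), Reg1 (3.21), Serpinb12 (3.35), 2610528A11Rik (3.54), Stfa3 (3.62), Cxcl3 (3.63) and Stfa2l1 (4.40). None of these calls held after cyclic loess normalization, although the day 3 differences themselves hardly moved (4.12 before and 4.13 after for Stfa2l1, 3.25 and 3.28 for Chil3, and -6.42 and -6.43 for Mt4). Hair keratins were set apart by symbol alone, and the levels of Gm10228 and Gm11563 ran with theirs. On day 3 Gm10228 was at 2.43 in PSI-F and 6.55 in PSI, where the hair keratin median was 2.17 and 6.64.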

How the results depend on the processing

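Of the counts of genes apart on day 3, those at 4-fold moved by over 1.5 times only with probe sets in place of genes (49 higher, against 29) and with hair keratins included (103 lower, against 63). At 2-fold, probe sets gave 333 higher and 461 lower, against 180 and 294, and the filter on dim genes gave 162 lower. The number of genes that limma called, 40, was 9 with the filter on dim genes (of 8385 tested), 78 with an intensity trend, 18 with the mean of all probe sets and 0 after cyclic loess, where the smallest adjusted p was 0.0642; the cause was not tested. It lay between 32 and 293 when day 1, 7 or 10 was left out, and it was 293 without day 1. All 40 genes were among the 78 and among the 293. Of 155 list medians under 3 alternatives, over 52 lists, 11 moved by over 0.25, the most for the Reg family, where the filter on dim genes, which admits a gene through either day 3 graft, left Reg3g alone. The sign changed for B and plasma cell genes only, from 0.05 to -1.70 where the same filter left 1 gene. The day paired PSI-F with PSI in the limma test, which was fitted on within-day differences, and with 1 array per graft and day there was no replicate number to block on. Differences between genes near the array medians are within the background of the array, and a change of 1 on the log2 scale was not recovered by limma in simulated data.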
